A study of Saccharomyces cerevisiae with 48 samples.

Results

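The step from 30 to 50 min at 37 °C was examined in budding yeast cells carrying cdc28-4, using the arrays labelled with those times in both replicate courses. This gave 4 of the 48 arrays of the series, 2 at 30 min and 2 at 50 min, compared within each course by its replicate number. All 33 cdc28-4 arrays, these 4 among them, entered 1 statistical fit. Its error was how far the 2 courses departed from each other at single times, beyond a constant difference. It was pooled over the 15 times with 2 courses, so an SE can be smaller than the gap between courses in this step. Every cdc28-4 culture was of strain BF264-15DU, mating type a, and is described in the labels as having no Cdk activity. A control course of 15 arrays came from the same background with bar1 and with Cdk activity, and is called wild type here. In both, small daughter cells were taken by centrifugal elutriation from YEPD cultures at 25 °C and put into YEPD already at 37 °C, which set time 0. All 30 and 50 min cells had therefore been through both the elutriation and the shift from 25 to 37 °C. The cultures of a course were sampled repeatedly, so the arrays of a course share one culture, and precision is limited by there being 2 arrays at each time.

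CDC28 encodes Cdk1, the kinase that with its cyclins drives the budding yeast cell cycle, and cdc28-4 is a temperature-sensitive allele of it. A temperature upshift in yeast brings a passing response in which chaperone genes under Hsf1 and general stress genes under Msn2 and Msn4 are raised while ribosome production genes are lowered. As cells adapt, stress transcripts fall back and the ribosome genes recover. Sulfate assimilation genes are switched on by Met4 with its partners Cbf1, Met28, Met31 and Met32 when sulfur metabolites run short.

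Of 5449 S. cerevisiae genes, 1596 (29.3%) were higher and 1492 (27.4%) were lower at 50 min than at 30 min, at a Benjamini-Hochberg adjusted p under 0.05 in limma. These 3088 genes are 56.7% of those tested, and 1865 of them differed by less than 0.5 on the log2 scale. At least 2-fold changes among them numbered 223 rises (4.09%) and 160 falls (2.94%), together 383 genes (7.03%). The 10 largest rises included genes of ribosome assembly, RNA polymerase I, purine salvage and the cell wall, and the 10 largest falls included sulfur and general stress genes. The median difference over all genes was 0.00. With 29.3% of all genes higher and 27.4% lower, the counts in gene lists below are to be read against those shares. All 3088 called genes had the same sign in both courses. The call rests on the mean of the same 2 differences, so this is no separate support. Arrays measure RNA relative to the total on each array, so fewer cells of one kind and less RNA per cell cannot be told apart.

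The step was one of a pair of large steps at the start of the course, as the plot of genes changed in each step shows. From 10 to 30 min, 3499 genes (64.2%) passed the test, more than from 30 to 50 min, but fewer of them, 310, reached 2-fold (160 higher and 150 lower). From 50 to 70 min only 369 genes (6.77%) passed, 17 of them at least 2-fold and all 17 lower. The count was 57 from 70 to 90 min, 10 from 90 to 110 min and between 0 and 6 in every later step. The arrays of 170 min stood apart from their neighbours (SD 0.17 in the steps on either side), and without them 3564 genes were called from 30 to 50 min. The SD of the log2 difference over genes was 0.53 in each of the first 2 steps and 0.17 from 50 to 70 min. Neighbouring steps share the arrays of the time between them, so their values are given side by side only.

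**Figure D1:**
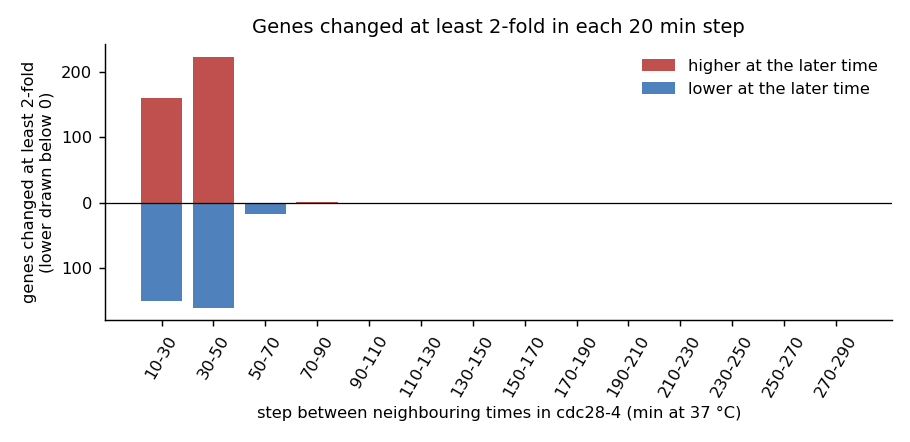
Number of genes changed at least 2-fold and past the limma threshold in each 20 min step of cdc28-4 (vertical axis, rises above 0 and falls below 0) against the step (horizontal axis, min). The bars reach 223 rises and 160 falls from 30 to 50 min, 160 and 150 from 10 to 30 min, and 17 falls from 50 to 70 min.

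The arrays of the step were alike in overall signal. Their median intensity lay between 394 and 412, and 94.3% to 94.9% of genes were above background, set at the 95th percentile of probe sets for fission yeast, averaged over arrays (8.40 on the log2 scale, an intensity of 337). The mean 3′ minus 5′ difference of the control transcripts other than URA3, a sign of RNA integrity and labelling, was taken here and below. It was 0.67 in course 1 and 0.53 in course 2 at 30 min. At 50 min it was 0.71 and 0.52, so it differed more between the courses than between the times. URA3, left out of the mean, had the opposite sign, at -0.78 and -0.86 at 30 min and -0.63 and -0.97 at 50 min. The mating type a markers MFA1 and STE2 lay at 12.96 or above on each of these arrays, and MF(ALPHA)1, an alpha pheromone gene, was under background on all 4. The other fixed alpha markers were not all absent: MF(ALPHA)2 lay between 8.49 and 8.77, STE3 between 8.46 and 8.49 and SAG1 between 9.83 and 9.90. BAR1, the protease that degrades alpha factor, stood at 11.87 and 12.46 at 30 min in cdc28-4 and under background at 7.55 in wild type, whose genotype carries bar1. CDC28 itself stood at 11.72 and 11.61 at 30 min and at 11.32 and 11.39 at 50 min. It fell by 0.31 (SE 0.09, adjusted p = 0.00598 in limma), a call that ended (adjusted p = 0.103) without the course 1 array of 50 min. The level of the transcript does not check a temperature-sensitive allele.

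Sulfur assimilation held some of the largest falls. Of 11 measured genes for sulfate uptake and reduction to sulfide, 10 fell and 7 of them at least 2-fold, with a median difference of -1.65 against 0.00 over all genes. The remaining member, MET22, differed by -0.11 and did not pass. SUL2, a high-affinity sulfate permease (YLR092W), stood at 12.80 and 12.40 at 30 min in courses 1 and 2 and at 9.69 and 9.72 at 50 min. Both 30 min arrays were far above both 50 min arrays, a 7.43-fold fall (log2 difference -2.89, SE 0.07, adjusted p = 3.49e-16 in limma). MET3 (YJR010W), ATP sulfurylase, which starts the reduction of sulfate, went from 13.65 and 13.21 to 10.99 and 11.49. It fell by 2.19 (SE 0.13) and stayed above its 10 min levels of 9.88 and 9.91, which it neared at 70 min (9.96 and 10.05). MET14, the next enzyme (APS kinase), fell by 2.49 (SE 0.14), from 13.31 and 13.26 to 10.48 and 11.12. MET1, needed for the siroheme of sulfite reductase, fell by 2.27 (SE 0.08).

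The genes that carry sulfide on to methionine, S-adenosylmethionine and cysteine moved with them. Of 18 measured, 17 fell, 9 at least 2-fold, and the median difference was -1.06. STR3 (YGL184C), the cystathionine beta-lyase that makes homocysteine, stood at 12.61 and 12.62 at 30 min and at 9.25 and 9.91 at 50 min, an 8.19-fold fall (log2 difference -3.03, SE 0.13). MET2 (YNL277W), homoserine acetyltransferase, went from 11.91 and 11.66 to 9.02 and 9.27, and fell by 2.64 (SE 0.11). MHT1, which makes methionine from S-methylmethionine, fell by 2.14 (SE 0.15), and MMP1, the permease that takes up S-methylmethionine, fell by 2.04 (SE 0.19). SAH1, S-adenosylhomocysteine hydrolase, was the member that rose, by 0.24 (SE 0.04).

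Among the 6 regulators of these genes, the levels split by gene. MET28, a cofactor that holds Met4 and Cbf1 on DNA, went from 10.62 and 10.78 to 8.23 and 8.57 and fell by 2.30 (SE 0.10). MET32, a DNA-binding partner of Met4, went from 10.34 and 10.18 to 8.64 and 8.65 and fell by 1.61 (SE 0.07). MET30, the F-box protein that restrains Met4, fell by 0.58 (SE 0.08). MET4, the activator itself, differed by -0.05 (SE 0.11, adjusted p = 0.758) and CBF1 by 0.01, and neither passed the test. MET31, a close relative of MET32, rose by 0.16 (SE 0.06, adjusted p = 0.0312), a call that ended in 8 alternative settings (adjusted p from 0.0814 to 0.196). For both the uptake and the methionine list the 30 min level was a peak. Of the uptake genes 10 of 11, and of the methionine genes 15 of 18, were highest at 30 min among the 15 times in both courses, against 11.4% of all genes, a description only, since it rests on the same 30 min arrays. Their medians from 10 to 30 min, on arrays shared with this step, were 2.34 and 1.13.

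By their median, general stress genes fell from high levels that were already present at 10 min. Of 30 genes known to be driven by Msn2 and Msn4, 28 fell, 21 at least 2-fold, and the median difference was -1.46, after a median of 0.07 from 10 to 30 min. Still, 16 of the 30 were highest at 30 min among the 15 times, against 11.4% of all genes. That count is a description only, since it rests on the same 30 min arrays. RTN2 (YDL204W), a reticulon-like protein of the endoplasmic reticulum and the largest fall of all, stood at 13.41 and 13.28 at 30 min and at 10.09 and 10.48 at 50 min. Every 30 min value was above every 50 min value, an 8.36-fold fall (log2 difference -3.06, SE 0.15, adjusted p = 4.84e-12 in limma). CTT1 (YGR088W), cytosolic catalase, went from 13.73 and 13.22 to 10.72 and 10.90, and fell by 2.66 (SE 0.16). Its 10 min levels were 13.98 and 13.93, above those of 30 min. The exceptions were HSP12, which differed by -0.16, and HOR7, by -0.10. MSN4 fell by 0.41 (SE 0.08), after a larger drop from 11.32 and 11.60 at 10 min to 9.92 and 9.95 at 30 min. MSN2 fell by 0.19 (SE 0.06, adjusted p = 0.0132 in limma), a call that ended in 3 alternative settings (adjusted p from 0.106 to 0.150).

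GRE1 (YPL223C) and SIP18 (YMR175W), a pair of hydrophilins made under osmotic and drying stress, did not share the early high level. GRE1 stood at 10.09 and 9.79 at 10 min, at 12.90 and 12.41 at 30 min and at 9.82 and 9.76 at 50 min, and fell by 2.86 (SE 0.13) in the step. SIP18 went from 13.28 and 13.03 at 30 min to 10.63 and 10.16 at 50 min and read 8.54 and 8.37 at 70 min. It fell by 2.76 (SE 0.10) in the step and was still moving after it. SEO1 (YAL067C), a putative permease of the allantoate transporter family, was under background at 10 min (7.94 and 8.04), stood at 11.46 and 11.78 at 30 min and at 8.67 and 9.15 at 50 min. Its fall was 2.71 (SE 0.13).

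**Figure D2:**
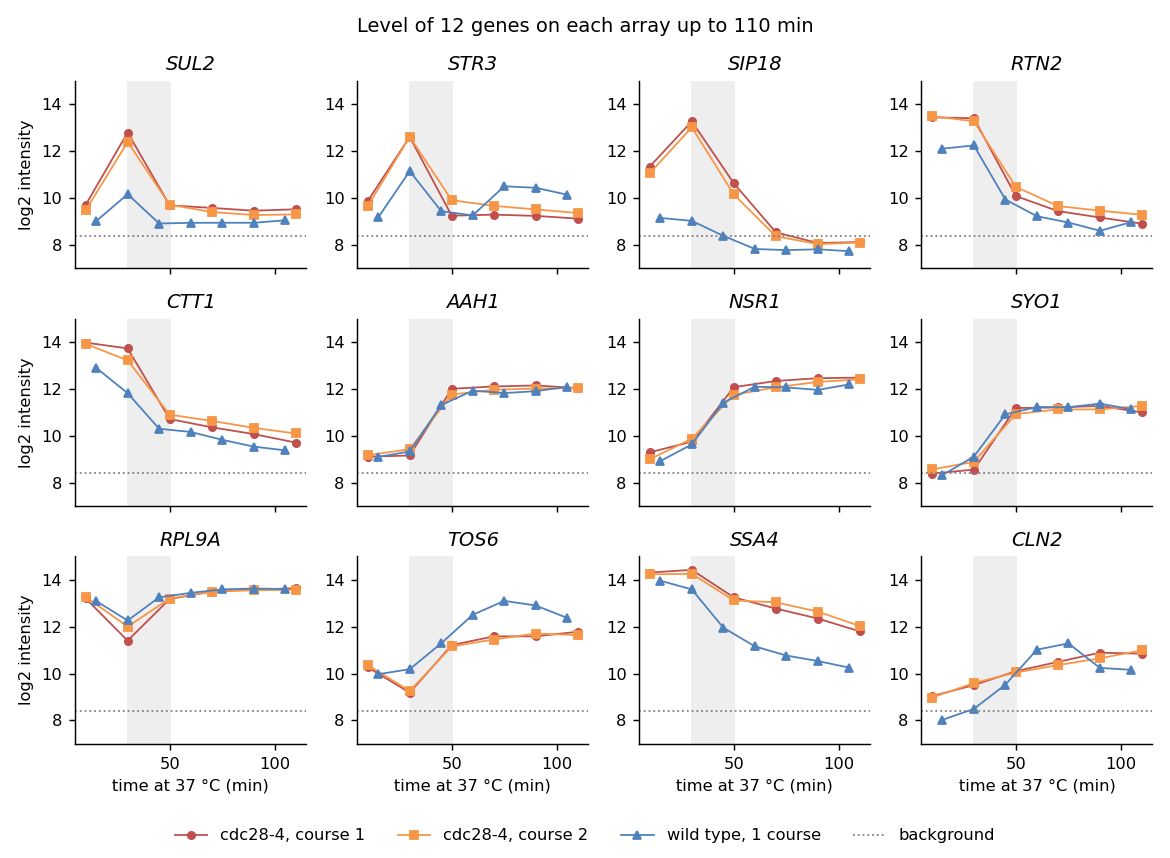
Log2 intensity (vertical axis) of 12 genes on each array up to 110 min at 37 °C (horizontal axis), with both cdc28-4 courses, the single wild-type course, the background level as a dotted line and the 30 to 50 min step shaded. SUL2 and STR3 peaked at 30 min, RTN2 fell from a level already reached at 10 min (13.45 and 13.50), and NSR1 and AAH1 stepped up to a level they held at 70 min.

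Storage carbohydrate genes fell as a whole list. All 18 measured genes for trehalose and glycogen fell, 9 at least 2-fold, with a median difference of -0.99. GSY2, the main glycogen synthase, went from 12.87 and 12.89 to 10.76 and 11.22 and fell by 1.89 (SE 0.14). GPH1, glycogen phosphorylase, which breaks the same polymer down, fell by 1.63 (SE 0.16), and GDB1, the debranching enzyme, by 1.62 (SE 0.13). PGM2, phosphoglucomutase, which feeds both pathways, fell by 1.54 (SE 0.24). The list thus held genes for making and for breaking down glycogen, and both moved in one direction.

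Other stress-linked lists fell less. Of 20 oxidative stress genes 13 fell and none rose (median -0.59), among them SRX1, sulfiredoxin, by 1.58 (SE 0.21), and GPX1, a glutathione peroxidase, by 1.50 (SE 0.11). Of 20 cell wall integrity genes 17 fell (median -0.49). SLT2, the MAP kinase of that pathway, went from 12.84 and 12.90 to 11.43 and 11.65 and fell by 1.33 (SE 0.10), and its targets PST1 and PIR3, both wall proteins, fell by 1.35 (SE 0.11) and 1.31 (SE 0.10). GSC2, a glucan synthase subunit of the same list, instead rose by 1.00 (SE 0.11), and CIS3, a wall protein, rose by 0.36 (SE 0.06). Of 34 proteasome genes 16 fell and none rose (median -0.13). At 30 min 26 of the 34 were highest, against 11.4% of all genes, a description only, since it rests on the same 30 min arrays. In this list UBI4, the polyubiquitin gene, fell by 1.11 (SE 0.13), and PRE10, a core particle subunit, by 0.30 (SE 0.05).

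Over the 17 cytosolic Hsp70 and Hsp40 genes 5 rose and 5 fell, shares near the 29.3% and 27.4% of all genes. SSA4 (YER103W), the heat-inducible cytosolic Hsp70, stood at 14.43 and 14.26 at 30 min and at 13.25 and 13.12 at 50 min, and fell by 1.16 (SE 0.13, adjusted p = 2.64e-07 in limma). SSA3, another inducible Hsp70, fell by 0.96 (SE 0.12), and SSE2, an inducible nucleotide exchange factor for Hsp70, by 0.97 (SE 0.12). The ribosome-bound Hsp70 SSB2, which folds new chains, went the other way, from 12.99 and 13.36 to 13.97 and 13.96, and rose by 0.79 (SE 0.08). The risers of the list were SSB1, SSB2, SSZ1, ZUO1 and SNL1, of which SSB1, SSB2, SSZ1 and ZUO1 form the ribosome-bound chaperone system, and apart from SSB2 they were picked out after their values were seen.

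The list named for small heat shock proteins and Hsp104 also holds HSP12, HSP30, HSP31 and SNO4, which are of other families. Of its 7 measured genes 4 fell and 3 did not pass, with a median of -0.38. SNO4, a relative of HSP31 on a probe set shared between similar genes, went from 10.04 and 10.14 to 8.62 and 8.83 and fell by 1.37 (SE 0.08), the most in the list. HSP31 fell by 0.44 (SE 0.13), a call that ended in 3 alternative settings (adjusted p from 0.0769 to 0.0846). HSP42 went from 13.51 and 13.21 to 12.51 and 12.61 and fell by 0.80 (SE 0.10). HSP104, the disaggregase, went from 14.19 and 14.16 to 13.78 and 13.83 and fell by 0.37 (SE 0.08). HSP26, a small heat shock protein, went from 14.45 and 14.51 to 14.10 and 14.10. Its arrays did not overlap, but its difference of -0.38 (SE 0.16) had an adjusted p = 0.0525 in limma, and from 0.00207 to 0.0499 in 7 of the alternative settings. Its level then read 13.06 and 13.30 at 70 min. HSF1, the heat shock factor, differed by -0.21 (adjusted p = 0.0958) and passed in 5 alternative settings (adjusted p from 0.000747 to 0.0385).

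All 8 subunits of the CCT chaperonin, which folds actin and tubulin, rose, by up to 0.44 (SE 0.06) in CCT3, with a median of 0.25. Of 12 Hsp90 and co-chaperone genes 4 rose and 2 fell, the rises a share near the 29.3% of all genes. PPT1, a phosphatase that binds Hsp90, rose by 1.19 (SE 0.11) and CNS1, an essential co-chaperone, by 1.06 (SE 0.09), while CPR6, a cyclophilin, fell by 0.25 (SE 0.05). Of 16 genes of endoplasmic reticulum folding 7 rose and 1 fell, with LHS1, a lumenal Hsp70, up by 0.54 (SE 0.10) and HRD1, a ubiquitin ligase, at -0.33 (SE 0.05). Of 11 mitochondrial chaperone genes 1 rose and 3 fell, no more than the shares of all genes (29.3% and 27.4%). HSP78, the mitochondrial disaggregase, fell by 0.55 (SE 0.08), and MGE1, a cofactor of the mitochondrial Hsp70, rose by 0.20 (SE 0.06), a call that ended in 2 alternative settings (adjusted p of 0.0664 and 0.0782).

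Ribosome assembly genes rose without exception. All 46 measured genes for small subunit assembly and all 50 for large subunit assembly rose, 35 and 40 of them at least 2-fold, with medians of 1.24 and 1.39. NSR1 (YGR159C), the yeast nucleolin, stood at 9.75 and 9.88 at 30 min and at 12.08 and 11.75 at 50 min. Both 50 min arrays were well above both 30 min arrays, a 4.29-fold rise (log2 difference 2.10, SE 0.10, adjusted p = 4.01e-12 in limma). MRD1 (YPR112C), an RNA-binding protein of the small subunit processome, went from 8.44 and 8.60 to 10.71 and 10.39 and rose by 2.03 (SE 0.13). LTV1 (YKL143W), which works on late small subunit precursors, was under background at 30 min (8.09 and 8.30) and read 10.41 and 10.18 at 50 min, at least 3.73-fold higher when set against the background level.

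For the large subunit, NOG1, a GTPase of its precursors, went from 9.31 and 9.69 to 11.53 and 11.38 and rose by 1.95 (SE 0.13). NSA2, another factor on those precursors, rose by 1.93 (SE 0.12), and YTM1 and NOP7, members of 1 complex, by 1.92 (SE 0.09) and 1.85 (SE 0.13). SYO1 (YDL063C), which brings newly made Rpl5 and Rpl11 to the nucleus, and RRP12 (YPL012W), which helps export both subunits, were in none of the lists and were among the largest rises. SYO1 went from 8.56 and 8.89 to 11.19 and 10.93 and rose by 2.33 (SE 0.11). RRP12 rose by 2.23 (SE 0.10). RMT2 (YDR465C), an arginine methyltransferase that acts on a ribosomal protein, rose by 2.10 (SE 0.12), from 8.81 and 8.96 to 11.12 and 10.85.

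Genes of the polymerases that make ribosomal and transfer RNA mostly rose. Of 37 genes for RNA polymerases I and III and their factors 28 rose and 3 fell, with a median of 0.62. RPA135 (YPR010C), the second-largest subunit of polymerase I, went from 10.48 and 10.88 to 12.84 and 12.70 and rose by 2.09 (SE 0.10). RPA190, the largest subunit, rose by 1.79 (SE 0.10), and RPC34, a subunit of polymerase III, by 1.46 (SE 0.09). TFC3 and TFC7, subunits of the polymerase III factor TFIIIC, fell by 0.33 (SE 0.08) and 0.27 (SE 0.07). The third fall was TFC1, also of TFIIIC, by 0.20, named after its value was seen.

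Ribosomal protein genes rose less but almost all together. Of 128 measured cytosolic members, 127 rose and only 4 reached 2-fold, with a median of 0.59. RPS22B, the other member, differed by 0.10 and did not pass. RPL9A went from 11.41 and 12.01 to 13.18 and 13.20 and rose by 1.49 (SE 0.11). RPS26B went from 11.90 and 12.46 to 13.48 and 13.42 and rose by 1.27 (SE 0.11). In both, the courses lay further apart at 30 min than at 50 min. Near-identical copies such as RPL9A and its paralog can share probe signal. Of the 128 genes 110 were lowest at 30 min among the 15 times, against 11.2% of all genes. That count is a description only, since it rests on the same 30 min arrays. The assembly genes already had positive medians from 10 to 30 min (0.56 and 0.70, against -0.42 for ribosomal proteins). Mitochondrial ribosomal proteins did not share the rise: of 55 measured 5 rose and 4 fell, under the 29.3% and 27.4% of all genes. SFP1, an activator of ribosome genes, rose by 0.35 (SE 0.06).

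Other translation genes rose too. All 20 measured cytosolic tRNA synthetase genes rose, with a median of 0.72. At 30 min 18 of them were lowest, against 11.2% of all genes, again a description only, on the same 30 min arrays. YHR020W, which charges proline tRNA, rose by 1.14 (SE 0.06), and MES1, for methionine tRNA, by 1.05 (SE 0.07). Of 33 translation factor genes 27 rose and none fell (median 0.52). TIF3, an initiation factor that aids the helicase, went from 10.57 and 10.74 to 11.90 and 11.78 and rose by 1.19 (SE 0.08). YEF3, elongation factor 3, rose by 0.78 (SE 0.05).

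**Figure D3:**
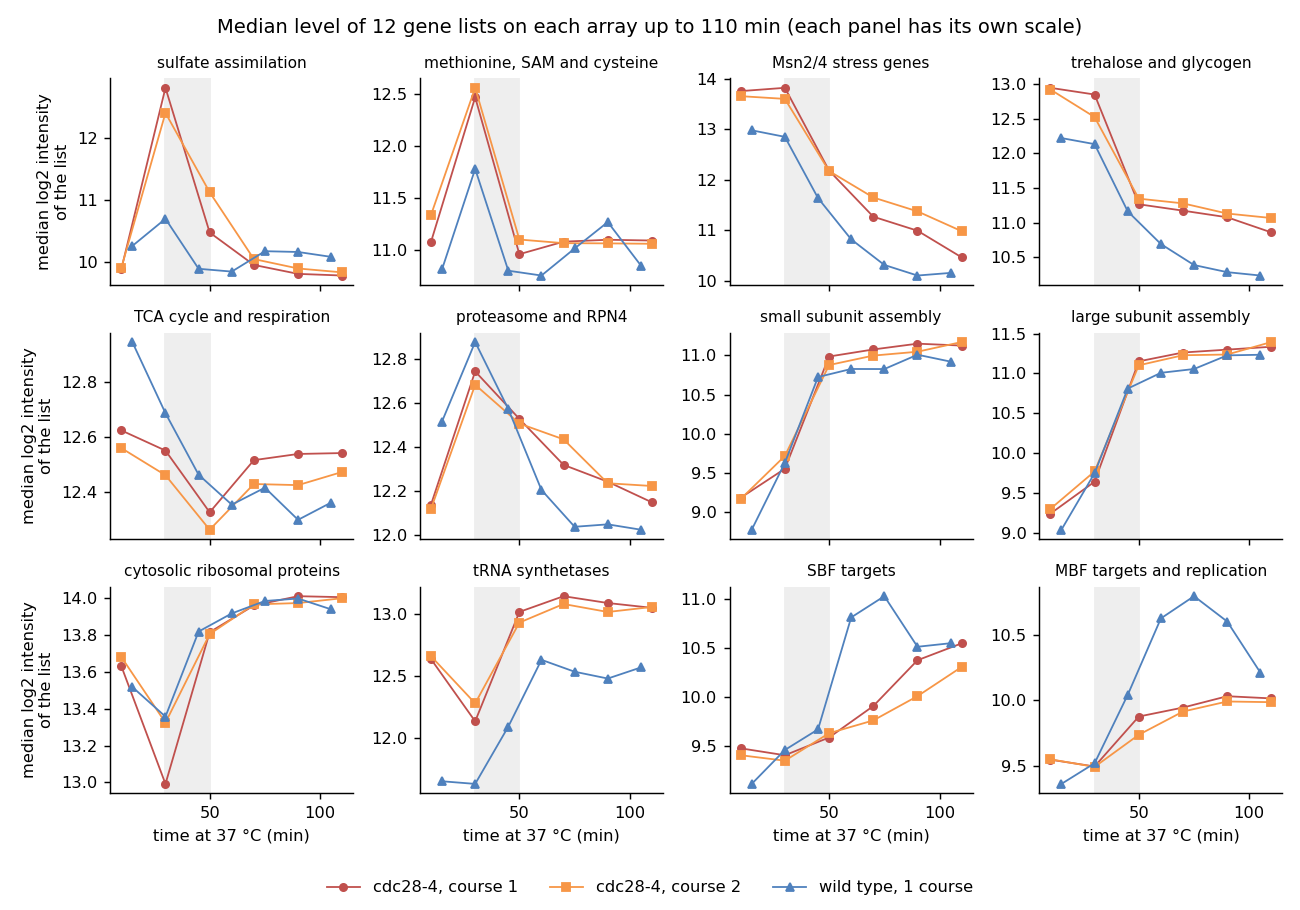
Median log2 intensity of the members of 12 gene lists (vertical axis, own scale in each panel) on each array up to 110 min (horizontal axis), for both cdc28-4 courses and wild type, with the 30 to 50 min step shaded. Sulfate assimilation rose into 30 min and fell out of it, the stress lists fell, the assembly lists rose, and ribosomal proteins dipped at 30 min (medians -0.42 into it and 0.59 out of it).

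The purine gene lists moved apart. AAH1 (YNL141W), adenine deaminase, which turns adenine into hypoxanthine for salvage, was the largest rise of all. It stood at 9.16 and 9.43 at 30 min and at 12.01 and 11.77 at 50 min, a 6.02-fold rise (log2 difference 2.59, SE 0.10, adjusted p = 2.60e-13 in limma). GUA1, GMP synthetase, went from 11.42 and 11.58 to 13.40 and 13.31 and rose by 1.85 (SE 0.06). IMD4 and IMD3, IMP dehydrogenases of the step before it, rose by 1.66 (SE 0.09) and 1.08 (SE 0.05). In the salvage and GMP list 9 of 13 rose, and ISN1, a nucleotidase that takes IMP away, fell by 0.71 (SE 0.13). In the list named for de novo purine synthesis 9 of 17 genes fell and 4 rose (median -0.22), against 27.4% and 29.3% of all genes. That list also holds GCV1, GCV2, GCV3, SHM1, SHM2, MTD1 and BAS1, which are not enzymes of the purine pathway itself. GCV1, of glycine cleavage, fell the most, by 0.53 (SE 0.135). ADE16 there fell by 0.46 (SE 0.06), and ADE6 rose by 0.48 (SE 0.06).

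Amino acid biosynthesis leaned upwards, with 27 of 56 genes higher and 9 lower (median 0.14), against 29.3% and 27.4% of all genes. LYS4, homoaconitase of lysine synthesis, went from 10.01 and 10.01 to 11.39 and 11.20 and rose by 1.28 (SE 0.07). ARO4, which starts aromatic amino acid synthesis, rose by 1.09 (SE 0.05), and BAT1, a branched-chain aminotransferase, by 0.95 (SE 0.05). SER33, of serine synthesis, and GLN1, glutamine synthetase, fell by 0.86 (SE 0.07) and 0.76 (SE 0.07). GCN4, the activator of many of these genes, stood between 13.78 and 13.85 on all 4 arrays (difference 0.02, adjusted p = 0.766). TAT1, an amino acid permease, rose by 1.63 (SE 0.06), whereas GAP1, the general permease, fell by 0.79 (SE 0.11) and PUT1, which degrades proline, by 1.17 (SE 0.14).

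Of 30 genes known to be repressed by glucose 21 fell and 1 rose (median -0.51). IDP2, cytosolic isocitrate dehydrogenase, fell by 1.41 (SE 0.10), POT1, of fatty acid oxidation, by 1.37 (SE 0.18), and YAT1, a carnitine transferase, rose by 0.28 (SE 0.07). Of 22 hexose transporter and sensing genes 7 rose and 5 fell, shares near those of all genes, with a median of 0.04. HXT5, a transporter of slow-growing cells, went from 12.04 and 11.44 to 9.20 and 9.92 and fell by 2.18 (SE 0.23). HXT1, the low-affinity transporter of high glucose, went from 11.93 and 12.13 to 13.31 and 13.36 and rose by 1.31 (SE 0.12). HXT3, also of low affinity, rose by 0.98 (SE 0.06), and HXT7, a high-affinity transporter on a shared probe set, fell by 0.63 (SE 0.13). HXK2, a hexokinase of the glycolysis list, rose by 0.96 (SE 0.05).

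Respiration fell in small amounts. Of 51 genes of the TCA cycle and respiratory chain 37 fell and 1 rose (median -0.28). CYC7, cytochrome c isoform 2, went from 12.41 and 12.32 to 10.33 and 10.66 and fell by 1.87 (SE 0.13), the most in the list. CYC1, the main isoform of the same protein, was the member that rose, by 0.48 (SE 0.10). COX5B, a cytochrome oxidase subunit isoform used at low oxygen, fell by 0.77 (SE 0.15).

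Of 19 phosphate genes 14 rose and 1 fell (median 0.52). PHO3, an acid phosphatase, went from 10.03 and 10.52 to 11.87 and 12.01 and rose by 1.66 (SE 0.11), and VTC3, of polyphosphate synthesis, rose by 0.82 (SE 0.07). PHM6, a phosphate-regulated gene, was under background at 30 min and at least 1.78-fold higher at 50 min. Of 32 iron and copper genes 8 rose and 6 fell, no more than the shares of all genes, with a median of 0.02. FET3 and FTR1, the oxidase and permease of high-affinity iron uptake, rose by 0.84 (SE 0.17) and 0.73 (SE 0.10), and HMX1, heme oxygenase, fell by 0.84 (SE 0.08). ERG3, a sterol desaturase, rose by 0.97 (SE 0.06), in a list of 29 ergosterol genes with 11 higher and 4 lower. Over all genes 29.3% were higher and 27.4% lower.

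**Figure D4:**
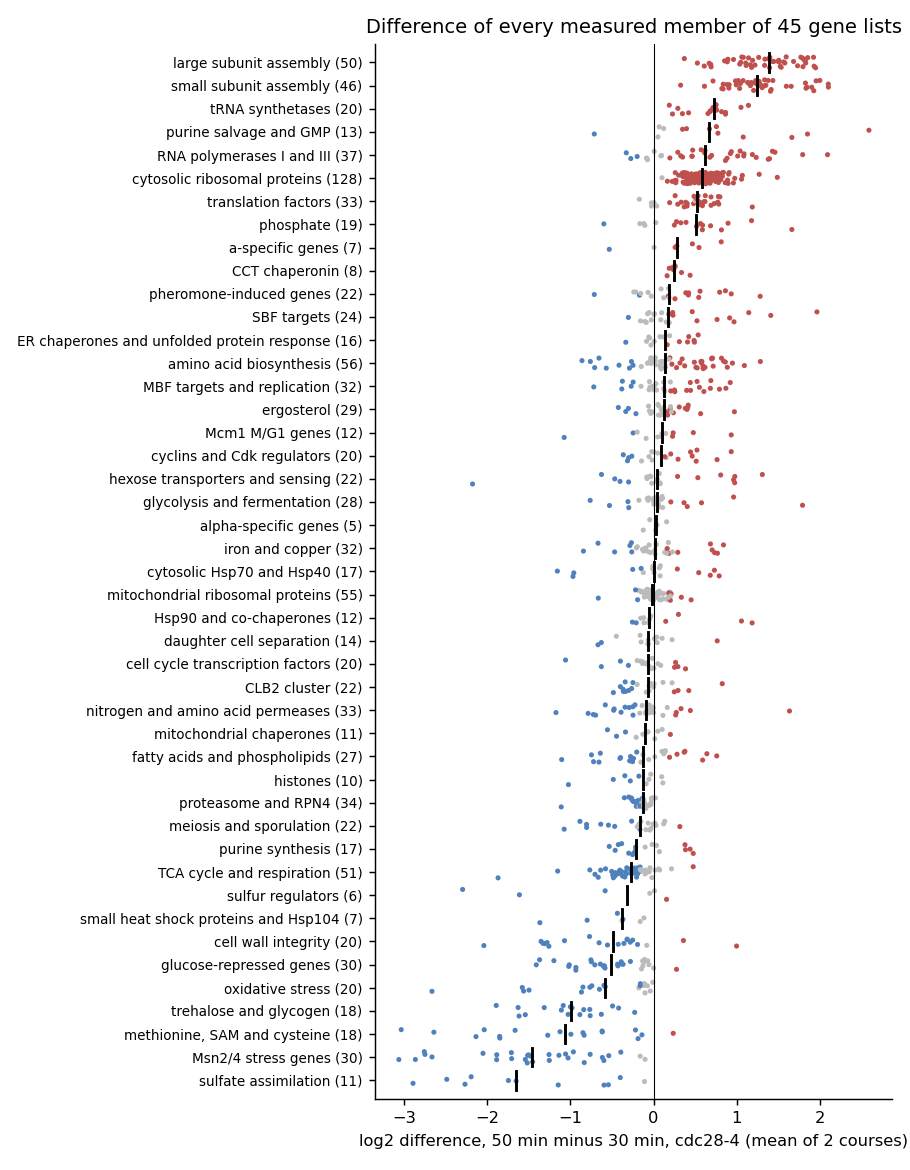
Log2 difference between 50 and 30 min in cdc28-4 (horizontal axis, mean of 2 courses) of each measured member of 45 gene lists (vertical axis, number measured in brackets), with rises in red, falls in blue, genes that did not pass in grey and the list median as a black mark. Members of the sulfate, Msn2/4 and storage lists lie to the left of 0 and those of the assembly, ribosomal protein and tRNA synthetase lists to the right, while the Hsp70 and Hsp40, Hsp90 and cyclin lists have members on both sides of 0.

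Cell cycle lists had small medians beside these groups, though some members moved at least 2-fold. The lists of cell cycle transcription factors (median -0.06) and of Mcm1 M/G1 genes (median 0.10) each held 1 gene at least 2-fold lower. Of 20 cyclins and Cdk regulators 9 rose and 4 fell, against 29.3% and 27.4% of all genes. None changed 2-fold, and the median was 0.09. CLN2 (YPL256C), a G1 cyclin, stood at 9.51 and 9.60 at 30 min and at 10.10 and 10.05 at 50 min, and rose by 0.52 (SE 0.10, adjusted p = 1.90e-04 in limma). CLN1 differed by 0.15 (adjusted p = 0.169) and CLN3 by 0.05 (adjusted p = 0.593). CLB6, an S phase cyclin, rose by 0.44 (SE 0.07). CLB5, the other S phase cyclin, rose by 0.21 (SE 0.07, adjusted p = 0.0205 in limma), a call that ended in 6 alternative settings. The mitotic cyclin CLB2 rose by 0.29 (SE 0.07) but did not pass without the replicate block (adjusted p = 0.0703), and CLB1 differed by -0.05.

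FAR1, an inhibitor of Cln-Cdk1, was the largest change among the regulators, from 9.64 and 10.03 to 10.69 and 10.85, a rise of 0.93 (SE 0.10). Of 24 targets of SBF, the G1 factor of Swi4 and Swi6, 11 rose and 1 fell (median 0.17), against 29.3% and 27.4% of all genes. At least 2-fold rises numbered 3 of the 24, against 4.09% of all genes. TOS6, a wall protein and SBF target, went from 9.19 and 9.26 to 11.22 and 11.16 and rose by 1.96 (SE 0.07), and SVS1, another, by 1.41 (SE 0.08). SWI4 differed by -0.20 (SE 0.15, adjusted p = 0.278). Of 32 MBF targets and replication genes 14 rose and 5 fell (median 0.13), against the same 29.3% and 27.4%. Among them RNR1, ribonucleotide reductase, rose by 0.92 (SE 0.07). DUN1, a checkpoint kinase, went down to 9.50 and 9.54 from 10.25 and 10.23.

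Further secreted or wall proteins were among the largest rises. SCW10 (YMR305C), a glucanase-like wall protein, went from 10.47 and 11.03 to 12.98 and 12.92 and rose by 2.20 (SE 0.11). PRY2 (YKR013W), a secreted sterol-binding protein, went from 10.84 and 11.11 to 13.07 and 13.01 and rose by 2.07 (SE 0.08). Of 10 histone genes 5 fell and none rose, against 27.4% and 29.3% of all genes. HHO1, the linker histone, was lowest at -1.02 (SE 0.06).

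Pheromone-induced genes rose in 11 of 22 cases and fell in 2 (median 0.18), against 29.3% and 27.4% of all genes. AGA1, the agglutinin anchor, went from 10.59 and 10.64 to 11.66 and 12.13 and rose by 1.28 (SE 0.16). FUS3, the mating MAP kinase, rose by 0.86 (SE 0.06), and SST2, which dampens the receptor's G protein, by 0.80 (SE 0.09). Of 7 genes specific to a cells 5 rose, including AGA2 by 0.81 (SE 0.12) and BAR1 by 0.55 (SE 0.13), and ASG7 fell by 0.53 (SE 0.15), a call that ended in 2 alternative settings (adjusted p of 0.0600 and 0.105). The BAR1 call, and the rises of STE2 (0.28) and STE6 (0.26), ended without the course 1 array of 30 min (adjusted p of 0.0786, 0.164 and 0.285). None of 5 genes specific to alpha cells passed the test. Of 5 markers of newly separated daughters, CTS1, DSE1, DSE2 and SCW11 did not pass, and EGT2 fell by 0.67 (SE 0.15). Of 22 meiosis and sporulation genes 9 fell and 1 rose, against 27.4% and 29.3% of all genes. Among the fixed markers of sporulating cells, SPS4 was under background, SPO11 lay between 8.37 and 8.49 and SMK1 between 8.43 and 8.78, and none of them passed. DMC1 stood at 9.71 on both 30 min arrays and fell by 0.81 (SE 0.06), and DIT1 stood at 9.33 and 9.50 and fell by 0.64 (SE 0.08).

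Most genes of the step also differed the same way between 10 and 70 min, a comparison added after the data were seen. Its difference uses none of the 4 arrays, though they enter the error of the fit. The interval spans the step in the same 2 courses, so the counts are no separate support. For the 223 rises the medians from 10 to 30 and from 50 to 70 min were only 0.055 and 0.13. For the 160 falls they were 0.098 and -0.19. Of the 223 genes at least 2-fold higher at 50 min, 216 were higher at 70 than at 10 min, against 42.8% of all genes (73.8% in either direction), and the median difference was 1.62. The single riser lower at 70 min was ARO4, by 0.15, which was picked out for that value. Of the 160 genes at least 2-fold lower, 141 were lower at 70 than at 10 min, against 31.0% of all genes, with a median of -1.61. In contrast, 7 of the 160 were higher at 70 min, and these were SEO1, MET32, MUP1, MET5, SAM1, DUG3 and SAM3, listed after their values were seen. The sulfate list had a median of 0.11 from 10 to 70 min and the methionine list of -0.02, while the Msn2/4 list had -1.79 and all 30 of its genes were lower.

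Course 1 showed the larger difference in nearly all of the strongly changed genes. Among the 383 genes at least 2-fold changed, the difference was larger in course 1 in 366, including 215 of 223 rises and 151 of 160 falls. The median rise was 1.48 in course 1 and 1.18 in course 2, and the median fall -1.53 and -1.24. The courses lay apart at both times: for the rising genes course 1 was lower by a median of 0.17 at 30 min and higher by 0.15 at 50 min. At 70 min it was higher by 0.096. The falling genes mirrored this, with course 1 minus course 2 at 0.12 at 30 min and -0.17 at 50 min. Over all genes the SD of the difference was 0.586 in course 1 and 0.473 in course 2, with medians of 0.00 in both. The SE of a gene, pooled over 15 times, is not the spread of this step alone. MET3 differed by -2.66 in course 1 and -1.72 in course 2, beside an SE of 0.13. HXT5 differed by -2.84 and -1.52, beside 0.23. In ARO4 the courses lay close, at 1.08 and 1.11, beside 0.05. The 3′ minus 5′ control difference given above was also higher in course 1 at both times. Its part in the larger differences of course 1 was not tested.

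**Figure D5:**
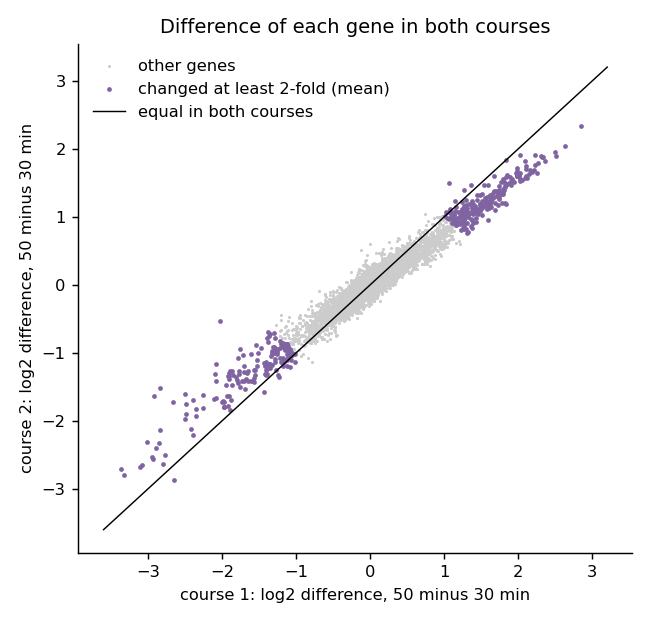
Log2 difference between 50 and 30 min of each gene in course 1 (horizontal axis) and course 2 (vertical axis), with the genes changed at least 2-fold in colour and a line where both courses are equal. In 366 of the 383 coloured genes the difference is larger in course 1.

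Wild type had 1 array at each time and none at 50 min, so its differences from 30 to 45 and from 30 to 60 min are set beside those of cdc28-4 without a test. Strain and course cannot be told apart, nor can the labelling kit if the sample numbers in the labels follow the listing order, to which they give no other key. In addition, the mean 3′ minus 5′ difference was 1.18, 1.22 and 1.16 on the wild-type arrays of 30, 45 and 60 min. The assembly lists had medians of 1.04 and 1.26 for the small subunit and 1.14 and 1.19 for the large subunit, beside 1.24 and 1.39 in cdc28-4. AAH1 differed by 1.98 and 2.59 in wild type and NSR1 by 1.78 and 2.46. RTN2 differed by -2.31 and -3.02, and the Msn2/4 list had medians of -0.80 and -1.40.

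The sulfate list differed less in the wild-type course, with medians of -0.30 and -0.33 beside -1.65. SUL2 stood at 10.17 at 30 min in wild type, under both 30 min levels of cdc28-4 (12.80 and 12.40), and differed by -1.25 and -1.22. SIP18 stood at 9.03 at 30 min in wild type, and GRE1 at 9.71, both far under their cdc28-4 levels. SSA4 had the larger differences in wild type, -1.63 and -2.43 beside -1.16 in cdc28-4. The SBF targets had medians of 0.43 and 1.16 in wild type and the MBF list of 0.48 and 0.98, beside 0.17 and 0.13. CLN2 differed by 1.03 and 2.53 in wild type, beside 0.52.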

How the data were processed

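RNA of all samples was hybridised to Affymetrix Yeast Genome 2.0 arrays, per the labels after hot acid phenol extraction and column cleanup. The authors deposited an intensity for each probe set on a linear scale, made with the R package affy, per the submitters' processing notes. How affy summarised and normalized the probes, and its version, is not stated in the sources used here, and array summaries can compress fold changes. Per the labels, samples 1 to 33 were labelled with a One Cycle kit and samples 34 to 48 with a MessageAmp Premier kit, which in listing order are the cdc28-4 and the wild-type samples.

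Background was the 95th percentile of 1746 fission yeast probe sets, averaged over arrays. Log2 of the deposited intensities was taken without an added constant. Of 10928 probe sets 5498 had 1 S. cerevisiae gene. For 47 genes with several probe sets the brightest was kept, leaving 5449 genes, 119 of them on probe sets shared between similar genes. Genes were named through the platform annotation and RefSeq.

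limma 3.58.1 in R 4.3.3 fitted 33 cdc28-4 arrays with a mean per time and the course as a block (14 residual degrees of freedom), and tests were two-sided. The pairing comes from the replicate number, which marks 1 time course. Same-numbered arrays of 30 and 50 min deviated together (r = 0.445 over genes). Where nothing more is said of the cultures, p-values measure only how these 2 courses departed from each other at single times. The block removes their constant difference, and the departures are pooled over the 15 times with 2 courses. Alternatives were other samples, blocks, scalings, filters, and leaving out each array.

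The comparison and the 45 gene lists were chosen with earlier results of these data known, so counts over lists carry no test. Genes were named by rule: the 10 largest rises and falls, up to 4 members of each list and 2 opposed to it, 22 fixed regulators and targets, and 5 genes in no list in each direction. Some genes picked by the rule are not described above. Among them are FMP16, EGO4 and FMP45, in no list, which differed by -2.74, -2.63 and -2.59. Members outside the rule that are named in passing complete a list's count. Promoter motifs were not analysed here.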

Additional observations from a re-analysis of the deposited data

How the results depend on the processing

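In each alternative setting run, no gene called there and in the reported fit changed sign. The settings reuse the same arrays and only genes called in both are counted, so a change of sign was unlikely beforehand. The reported fit called 3088 genes between 30 and 50 min. Without the replicate block it called 2626, from the 4 arrays alone 2938 with the block and 2375 without it, and with the 170 min arrays left out 3564. Centring on the gene median gave 3195 calls with 44.2% of them higher, against 51.7%, and moved the median of all genes to -0.04. Quantile normalization gave 3143 and centring on fission yeast probe sets 2881. Leaving out 1 of the 4 arrays gave 2537 to 2861. The count of genes called from 50 to 70 min, 369, was 164 without the block and 233 with fission yeast centring. The most genes called in a step after 70 min, 57, became 20 and 99 in the same settings. The cause was not tested. Of 236 named genes, 6 lost the call without the block, 12 with the 4 arrays alone and no block, and 4 to 11 when 1 array was left out. Lists with medians near 0, such as glycolysis, iron and copper, and cytosolic Hsp70 and Hsp40, took either sign with the scaling. With 2 courses, few arrays limit what small differences can be told from such departures between courses at single times.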
